A study of Homo sapiens with 4 samples.

Results

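The genes described here encode molecular chaperones and their partners: the HSP70, HSP110 and HSP90 families, the small heat shock proteins, the chaperonins HSP60 with HSP10 and CCT, the J-domain co-chaperones, the co-chaperone BAG3 and the heat shock factors HSF1 and HSF2. They were chosen by symbol alone, and 71 of the 19775 genes in the deposited table met that rule. The cells were of the H1 line, embryonic stem cells of human origin long kept in culture, with the wild-type genotype. All 4 samples that the labels describe grew in E8, a defined medium with insulin, FGF2 and TGFβ. In the XMD892 group, 2 samples received 1 µM XMD892, an inhibitor of the kinase ERK5, for 12 h. The other group had 2 samples in E8 without the compound for 12 h. The table's untreated columns are named for another culture time than these E8 samples, so the E8 samples were not analysed here, and no value below is an effect of XMD892. A further column named for XMD892 at 12 h, numbered 3, matches no sample in the labels and was not used. The levels are those of treated cells, and the differences are between replicate 1 and replicate 2 of the treated group. The labels do not say whether the replicates were separate cultures, so their spread may be technical.

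Replicate 1 held 18528689 recovered reads and replicate 2 held 20217648. Levels are given in RPKM, reads scaled to the kilobases of a gene's exons and to the size of the library. The 9 pluripotency markers searched ran from 21.1 RPKM for SALL4 to 1082 RPKM for POU5F1. Of 5 endoderm markers, only GATA4 was listed, at 0.0344 RPKM. The 2 libraries differed in some programs: 17 of 21 hypoxia and glycolysis genes were higher in replicate 2 (summed level 1990.1 and 2794 RPKM), and 4 of 5 tested fibroblast and mesenchymal markers were higher in replicate 1 (summed level of the 6 listed 110.1 and 74.6 RPKM), while COL3A1, LUM and DCN were not listed. The exception was THY1, at 33.7 and 64.2 RPKM. All 3 listed neuroectoderm markers were higher in replicate 1, with NES at 169.9 and 89.7 RPKM. The pluripotency markers were split: 6 of the 9 leaned to replicate 1, SALL4 the most, at -0.86 (log2, replicate 2 minus replicate 1). The remaining 3 leaned to replicate 2, POU5F1 the most, by 2.09-fold. Over all 9 the median difference was -0.26 (log2). The part of these programs in any chaperone difference below was not tested. In bulk RNA, a change in the number of cells of a type and a change in RNA per cell cannot be told apart.

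Chaperones bind unfolded or partly folded proteins and release them in cycles of ATP binding and hydrolysis. J-domain proteins bring clients to HSP70 and start its ATPase, and the HSP110 proteins and BAG3 release the ADP. HSP90 then takes over kinases, receptors and other late folding clients, while CCT folds actin and tubulin in a closed chamber. HSF1 is the main activator of these genes under heat or unfolded protein, and it binds inverted repeats of the unit NGAAN, known as heat shock elements.

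Promoter sequences are shown first because heat shock elements are what links many of these genes to HSF1. RefSeq promoter windows on GRCh38.p14, each from 250 bases before to 50 bases after an annotated start, were found for 64 of the 71 genes. The 2-unit element was searched as GAA and TTC, in either order, with any 2 bases between them, so each form is its own reverse complement and both strands are covered. It was present in 21 of the 64 genes (32.8%), against 13.9% of the 11998 listed genes and 16.2% of the 27305 genes in the promoter table. The 3-unit element adds another GAA or TTC in alternation, again after any 2 bases, and so contains overlapping 2-unit elements. It was present in 6 of 64 (9.38%), against 0.500% of listed genes and 0.608% of all genes. These 6 were HSP90AA1, HSP90AB1, HSPA8, HSPD1, DNAJA1 and DNAJB6. By class, the 2-unit element was found for 5 of 10 genes of the HSP70, HSP110 and BAG3 group, 3 of 4 small heat shock genes, 2 of 23 class C J-domain genes and 0 of 7 genes of the endoplasmic reticulum. A match is a stretch of letters and not a measured binding site. The 3-unit element of DNAJA1 lies just after its start and is not printed. The first set below holds 3-unit elements upstream of a start, on the gene's strand, 5′ to 3′, with the bases of the 3-unit elements in capitals. The last base of the HSP90AA1 stretch is also the first of a separate 2-unit element, at -68 to -61 bases, which is not printed.
HSP90AB1, chr6:44247758-44247863, plus strand: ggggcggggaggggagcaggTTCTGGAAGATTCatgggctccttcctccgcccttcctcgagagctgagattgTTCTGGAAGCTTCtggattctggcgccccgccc
HSP90AA1, chr14:102087112-102087140, minus strand: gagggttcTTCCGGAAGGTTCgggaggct
HSPA8, near site, chr11:123062171-123062199, minus strand: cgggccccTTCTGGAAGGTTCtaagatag
HSPA8, far site, chr11:123062346-123062374, minus strand: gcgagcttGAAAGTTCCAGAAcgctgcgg
HSPD1, chr2:197500062-197500090, minus strand: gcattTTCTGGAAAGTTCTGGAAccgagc
DNAJB6, chr7:157336853-157336905, plus strand: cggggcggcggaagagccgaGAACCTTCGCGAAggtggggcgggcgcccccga

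HSP90AB1 and HSPA8 each held a pair of 3-unit elements, at -165 and -112 bases for HSP90AB1 and at -230 and -55 bases for HSPA8. HSPD1 held 3 overlapping 2-unit matches in a run between -245 and -228 bases from the one of its starts that has this window. HSPD1 and HSPE1 lie head to head: that HSPD1 start is 539 bases from the HSPE1 start, and another HSPD1 start is 105 bases from it. The run ends 294 bases from the HSPE1 start, outside the HSPE1 window, and lies downstream of that other HSPD1 start. The printed HSP90AA1, HSPA8 and HSPD1 stretches lie wholly within annotated exons, those of HSP90AA1, of HSPA8 and of HSPD1 or HSPE1. The printed HSP90AB1 and DNAJB6 stretches hold 0 bases of annotated exons. The second set shows genes known for strong induction by heat whose window held 2-unit elements alone, and DNAJA4, a class A J-domain gene.
HSPA1A, chr6:31815417-31815464, plus strand: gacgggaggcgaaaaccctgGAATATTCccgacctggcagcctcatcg
HSPA1B, chr6:31827613-31827660, plus strand: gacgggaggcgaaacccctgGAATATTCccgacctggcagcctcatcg
DNAJB1, chr19:14518417-14518494, minus strand: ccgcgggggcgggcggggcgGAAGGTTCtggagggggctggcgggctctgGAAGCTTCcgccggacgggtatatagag
HSPB1, chr7:76302471-76302518, plus strand: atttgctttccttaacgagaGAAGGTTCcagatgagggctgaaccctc
DNAJA4, chr15:78264451-78264537, plus strand: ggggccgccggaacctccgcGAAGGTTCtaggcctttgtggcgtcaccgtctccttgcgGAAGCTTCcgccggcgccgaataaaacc

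The HSPA1A and HSPA1B stretches differed at 1 of 48 bases. Of 10 heat-inducible members on a fixed list (HSPA1A, HSPA1B, HSPA8, HSP90AA1, DNAJB1, HSPH1, HSPB1, BAG3, HSPD1 and HSPE1), 7 held the 2-unit element, and the windows of HSPH1, BAG3 and HSPE1 did not hold these letters. In all there were 39 matches in 21 genes, and 32 of them, in 18 genes, lay upstream of the start that defines their window. The map of matches shows where they fell.

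**Figure D1:**
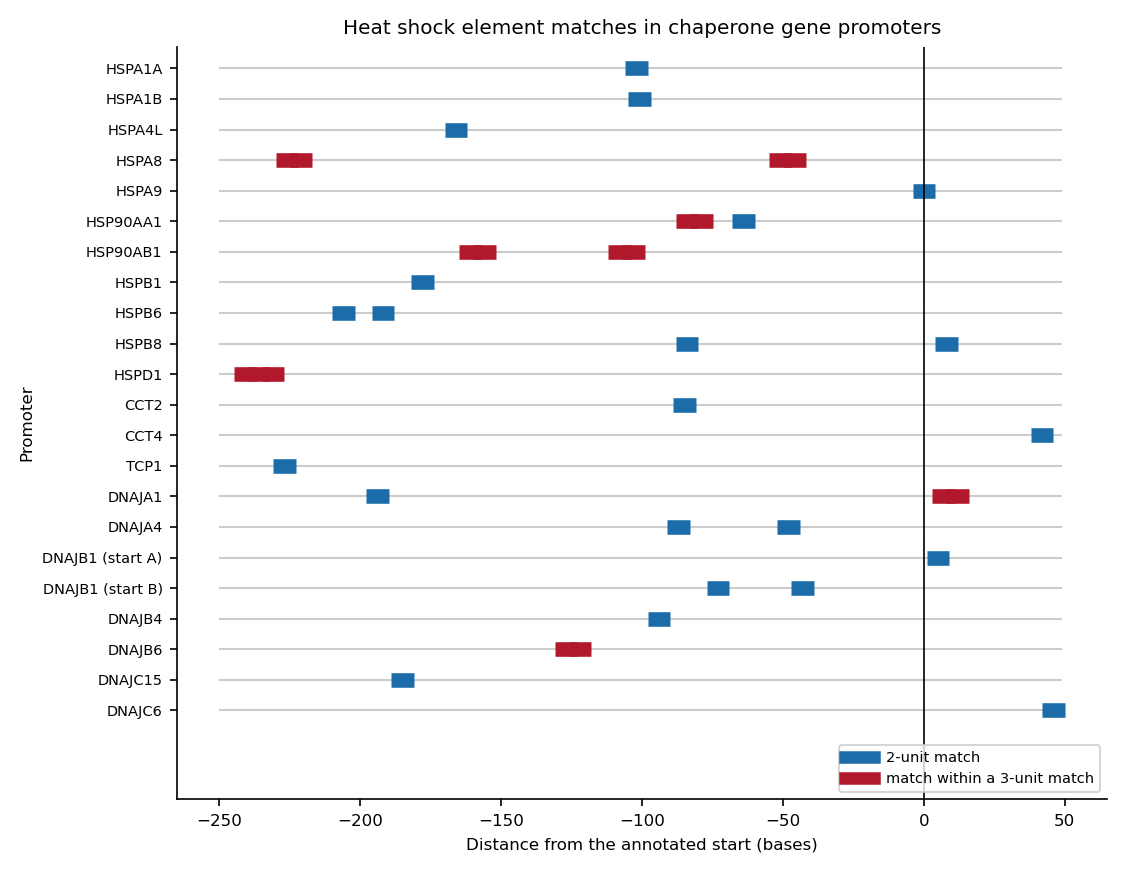
Positions of heat shock element matches in the promoter windows of 21 chaperone genes; the x axis is the distance in bases from the annotated start (black line), each grey line is a window from 250 bases before to 50 after a start, blue bars are 2-unit matches and red bars are matches inside a 3-unit match. DNAJB1 has matches at separate starts, and the red bars fall in 6 genes.

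Chaperone transcripts were abundant in the treated cells. Of the 70 members with an exon length, 62 reached 1 RPKM in both libraries, against 59.6% of all 19262 genes with a length. The median member stood at 8.45 RPKM and the median gene of the table at 2.31 RPKM. The members took 2.02% of the reads in replicate 1 and 1.86% in replicate 2. Within that total, HSP90AB1, HSPA8, HSP90AA1 and HSPD1 together took 59.2% in replicate 1 and 56.9% in replicate 2, so over 50% of the chaperone reads came from cytosolic HSP90, HSC70 and mitochondrial HSP60.

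**Figure D2:**
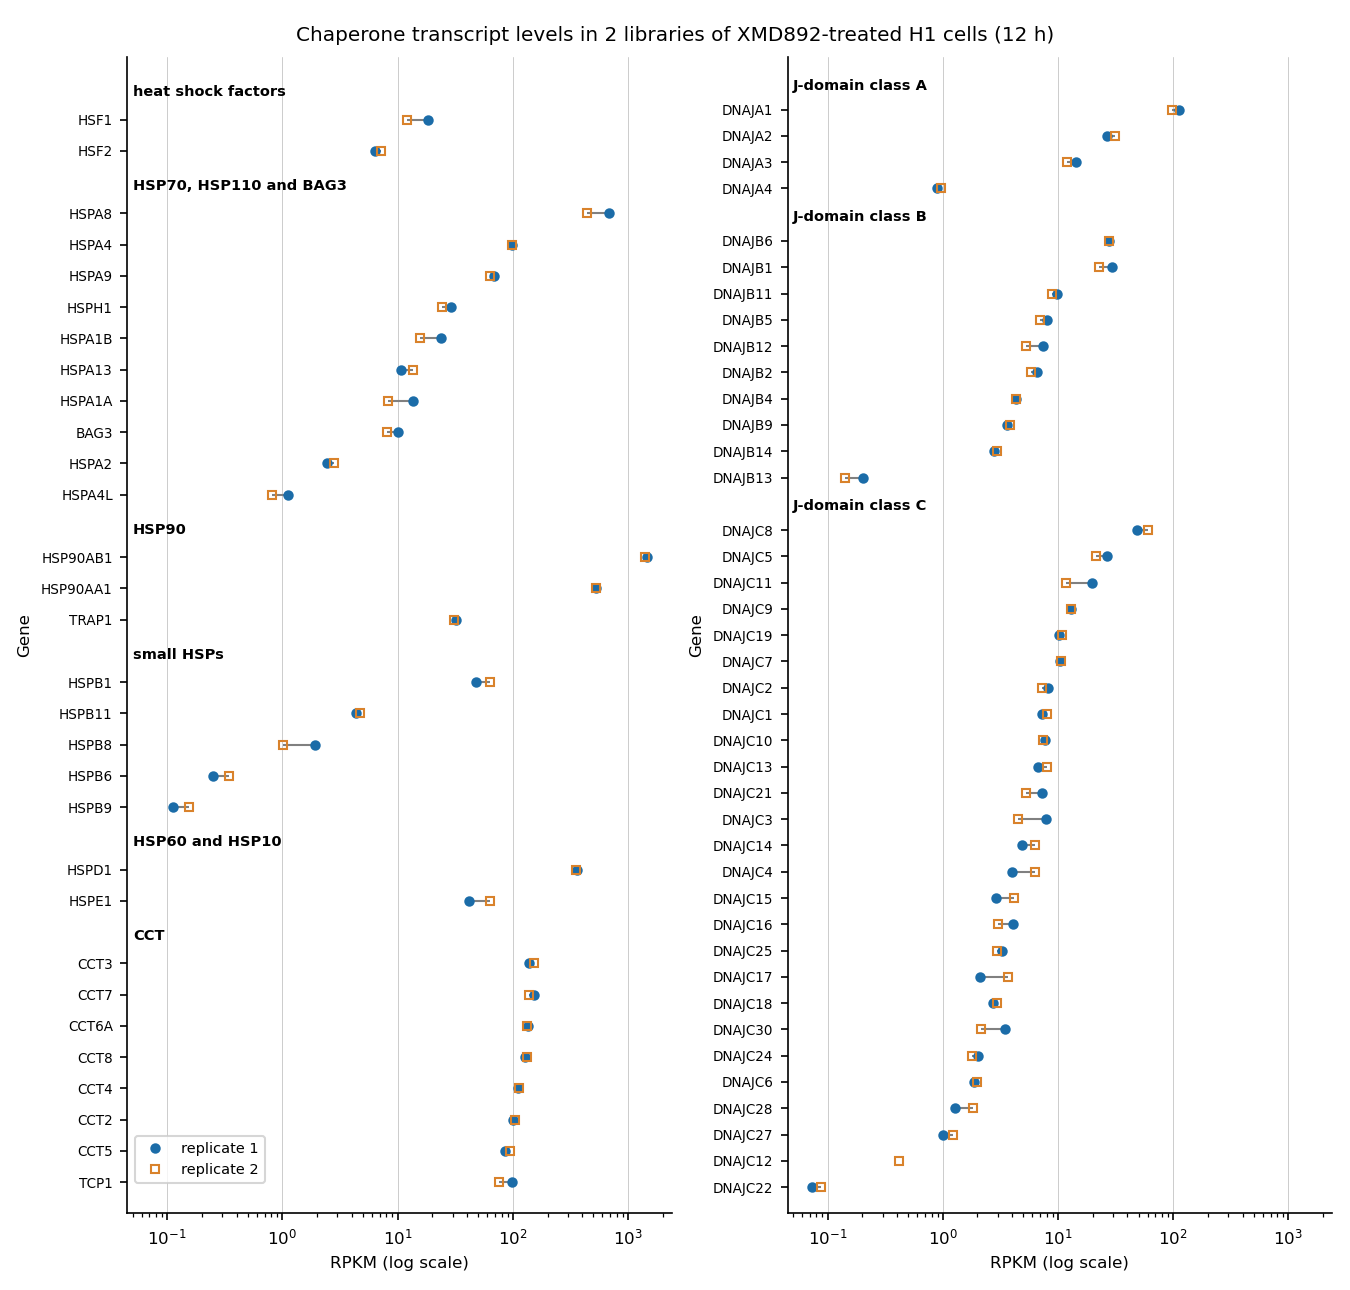
Level of each member in the 2 treated libraries, in RPKM on a log scale, grouped by role; filled circles are replicate 1, open squares replicate 2, and a grey line joins them. The levels run from 0.0805 RPKM for DNAJC22 to 1436 RPKM for HSP90AB1, and DNAJC12, with 0 reads in replicate 1, has a square only.

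The transcripts of the heat shock factors were moderate. HSF1, the master regulator of the heat response, stood at 18.2 RPKM in replicate 1 and 12.0 RPKM in replicate 2. HSF2, a related factor with roles in development, stood at 6.35 and 7.18 RPKM. HSF1 was thus above HSF2 in both libraries, by 2.87-fold and 1.67-fold per exon length, or by 6.83-fold and 3.98-fold with the shorter exons of the basic transcript set. HSF1 acts mainly through changes of its protein, which RNA levels do not measure.

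Among the HSP90 genes, the constitutive cytosolic form led. HSP90AB1 (chr6:44246166-44253888, plus strand) stood at 1458 and 1414 RPKM, a mean of 1436 ± 30.7 (SD, n = 2), and ranked 17 of all genes with a length. Its heat-inducible relative HSP90AA1 stood at 529 and 524 RPKM. The ratio of HSP90AB1 to HSP90AA1 was 2.75 in replicate 1 and 2.70 in replicate 2. The mitochondrial member TRAP1 was far lower at 32.0 and 30.6 RPKM. These levels were nearly the same in both libraries: none of these 3 genes differed by more than 1.06-fold between them in normalized counts. The sign of these small differences turned when libraries were scaled by total reads. HSP90B1 of the endoplasmic reticulum, which the symbol rule left out, was 1.19-fold higher in replicate 2. Reads of HSP90AB1 and HSP90AA1 can be shared with pseudogenes, since 16.6% and 14.02% of their 50-base transcript windows also occur in other annotated genes, HSP90AB3P and HSP90AA2P first.

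In the HSP70 family, the constitutive gene HSPA8, which encodes HSC70, exceeded all others. It stood at 682 RPKM in replicate 1 and 442 in replicate 2 and ranked 50 of all genes with a length. Among the HSP70 genes chosen here, the mitochondrial HSPA9 followed at 68.0 and 63.6 RPKM. HSPA5 of the endoplasmic reticulum, which the symbol rule left out, was above it at 209.6 and 166 RPKM. The inducible copies were low: HSPA1A stood at 13.6 and 8.23 RPKM, and HSPA1B at 24.0 and 15.6 RPKM. HSPA1A and HSPA1B lie in tandem on chromosome 6, with 9788 bases between them. Of the HSPA1A windows, 71.3% also occur in another gene, HSPA1B first, so the split between the copies is uncertain. The deposited values do not show how reads that match both copies were counted. If such reads were left out, the levels of both copies and their sum are too low. On the same strand, the gene AL671762.1 overlaps 36.5% of the HSPA1B exon length, and the counting of those reads is not shown either. As counted, HSPA8 was 18.1 times their summed RPKM in replicate 1 and 18.5 times in replicate 2, or 32.6 and 33.3 times with the basic transcript set. HSPA13, an HSP70 relative of the microsomes, stood at 10.7 and 13.7 RPKM, and HSPA2, known for its role in sperm formation, at 2.46 and 2.78 RPKM. HSPA14, a partner of DNAJC2 at the ribosome, had 459 and 479 reads, and its symbol has no unique gene ID in GENCODE release 29, so no RPKM is given.

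Of the factors that release ADP from HSP70, the HSP110 gene HSPA4 was the most abundant at 97.6 and 98.7 RPKM. HSPH1, the heat-inducible HSP110, stood at 28.8 and 24.2 RPKM, and HSPA4L at 1.11 and 0.817 RPKM. BAG3, which links HSP70 to small heat shock proteins and autophagy and is strongly induced by stress, stood at 10.2 and 8.14 RPKM. HSPA4 was therefore the main transcript of this kind, and the stress-induced members were well below it in both libraries.

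Small heat shock proteins hold unfolded clients without ATP. HSPB1 (HSP27) was the only member above 5 RPKM, at 48.1 and 62.8 RPKM. HSPB8, the partner of BAG3, stood at 1.91 and 1.00 RPKM. HSPB6 had 8 and 12 reads and HSPB9 had 4 and 6, which is too few to resolve a difference. HSPB11, at 4.37 and 4.75 RPKM, carries the family's name but encodes the intraflagellar transport protein IFT25.

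The mitochondrial chaperonin gene HSPD1 (HSP60) stood at 361 and 355 RPKM, and its lid HSPE1 (HSP10) at 41.5 and 63.8 RPKM. HSPD1 thus exceeded HSPE1 per exon length by 8.69-fold in replicate 1 and 5.57-fold in replicate 2, although the proteins act as partners. The HSPE1 value is uncertain: its merged exons overlap HSPD1 on the opposite strand (14.2% of their length, with 9.71% overlapped on the same strand by HSPE1-MOB4), and 22.7% of its windows occur in other genes. The deposited values do not show how reads in such overlaps were counted.

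All 8 subunits of CCT, the cytosolic chaperonin, were abundant and close to each other, between 87.0 ± 15.7 RPKM for TCP1 and 146 ± 8.96 RPKM for CCT3 (SD, n = 2). The highest subunit exceeded the lowest by 1.77-fold in replicate 1 and 2.00-fold in replicate 2. CCT7 stood at 152 and 138 RPKM, CCT6A at 135 and 134, and CCT8 at 128 and 134. CCT4 stood at 111 and 113 RPKM, CCT2 at 101 and 103, and CCT5 at 85.7 and 93.97. The order of neighbouring subunits is not firm, since CCT3 and CCT7, like CCT5 and TCP1, differed by less than the spread of their replicates. It also moves with the exon length used: with the basic transcript set in place of all transcripts, CCT4 was the lowest at 125.6 RPKM and CCT3 the highest at 258.7 RPKM, with TCP1 at 171.6 RPKM.

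J-domain proteins were numerous and mostly low. The 40 listed genes had a median of 6.20 RPKM and summed to 460.4 RPKM in replicate 1 and 437 RPKM in replicate 2. In class A, which has the layout of bacterial DnaJ, DNAJA1 stood at 112 and 97.003 RPKM and was the highest J-domain gene. DNAJA2 followed at 26.7 and 31.3 RPKM and the mitochondrial DNAJA3 at 14.4 and 12.0 RPKM, while DNAJA4 was at 0.884 and 0.968 RPKM. DNAJA4 was the lowest of its class. It has 3 annotated starts, and a single window of these holds its pair of 2-unit elements. Any link of the pair to its level was not tested.

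In class B, DNAJB6, which keeps aggregation-prone proteins soluble, stood at 27.5 and 28.0 RPKM. DNAJB1 (HSP40), the classical heat-inducible partner of HSP70, was close at 29.7 and 22.6 RPKM. The next were DNAJB11 of the endoplasmic reticulum at 9.35 ± 0.570 RPKM and DNAJB5 at 7.49 ± 0.734 RPKM (SD, n = 2). DNAJB13, a cilium and sperm gene, had 13 and 10 reads. With the basic transcript set, DNAJB6 reached 124.1 RPKM and DNAJA1 119.6 RPKM, so the order of these genes depends on the transcripts counted as their length.

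Class C holds the most diverse J-domain proteins, with 26 genes and a median of 5.39 RPKM. DNAJC8, which is linked to the spliceosome, led at 48.1 and 60.3 RPKM, followed by DNAJC5 (cysteine string protein, a chaperone of vesicle exocytosis) at 26.7 and 21.3 RPKM. DNAJC11, a partner of the mitochondrial inner membrane organising complex, stood at 19.6 and 11.7 RPKM. DNAJC9, a histone chaperone, stood at 12.9 RPKM in both libraries. DNAJC19 of the mitochondrial import motor stood at 10.3 and 10.9 RPKM, and DNAJC7 at 10.5 and 10.6. With the basic transcript set DNAJC7 reached 46.4 RPKM and stood above DNAJC5 at 24.35 RPKM, while DNAJC8 remained the highest at 88.9 RPKM. At the other end, DNAJC22 had 7 and 9 reads and DNAJC12, a partner of aromatic amino acid hydroxylases, had 0 and 18 reads.

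By place in the cell, the 9 members of the mitochondria had a median of 15.6 RPKM and summed to 553 and 554 RPKM, and 358 RPKM of that was HSPD1. The 8 members of the endoplasmic reticulum had a median of 6.98 RPKM and summed to 57.3 and 54.5 RPKM. The symbol rule left out HSPA5, HSP90B1 and HYOU1 of the same compartment, at means of 188, 222 and 45.7 RPKM. The sum is therefore not that of all its chaperones. These compartments were assigned from textbook knowledge with the values known, and only for genes whose place is well established.

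Between the 2 treated libraries, the differences of the tested chaperone genes were below 2-fold but often larger than counting error. The 68 members whose normalized counts averaged 10 or more were compared, and 0 were 2-fold or more apart on the log2(normalized count + 1) scale, against 10.9% of all 16148 genes. Toward replicate 2 the share of all genes past that fold was 4.76%, and toward replicate 1 it was 6.14%. Members are more abundant than most genes, and abundant genes spread less: at a mean of at least 50, it was 0 of 66 members against 5.64% of all genes. That cut did not match the sets in level, with medians of 10.6 RPKM for those members and 5.97 RPKM for those genes. A single library stands on each side, so these are descriptions with no test. The median difference of the 68 members was 0.09 (log2, replicate 2 minus replicate 1), against 0.02 over all genes. By direction, 41 members were higher in replicate 2 and 27 in replicate 1, against 52.1% and 47.9% of all genes. With total reads as the scale, that split was 32 against 36 members and the median of all genes moved to -0.08. Exact 95% counting intervals excluded equal levels for 48 of 68 members, against 58.1% of all genes, 29 of them toward replicate 2 (30.8% of all genes) and 19 toward replicate 1 (27.3%). The members' share was thus the larger in total and toward replicate 2, and close to that of all genes toward replicate 1. Such intervals narrow as reads rise, and the part of read number in this was not tested. They cover counting error only and take the size factors as given.

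**Figure D3:**
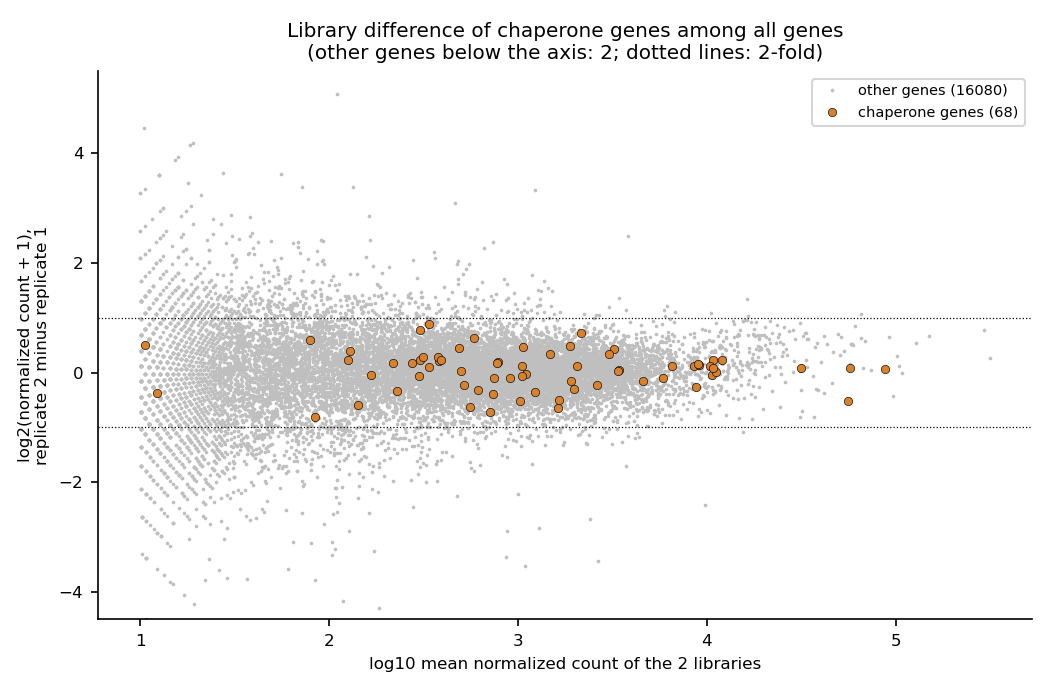
Difference of replicate 2 minus replicate 1 on the log2(normalized count + 1) scale against log10 of the mean normalized count; grey points are the other genes, of which 2 fall below the axis, orange points the 68 tested chaperone genes, dotted lines 2-fold. All 68 orange points lie between the dotted lines, while 10.9% of all genes lie outside them.

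HSPA8, the inducible HSP70 pair and HSF1 were higher in replicate 1. HSPA8 had 61309 reads in replicate 1 and 43287 in replicate 2, and was 1.44-fold higher in replicate 1 (1.42 to 1.46). The summed reads of HSPA1A and HSPA1B were 1749 and 1209, a 1.47-fold difference the same way (1.37 to 1.58). HSF1 was 1.42-fold higher in replicate 1 (1.32 to 1.52), on 1794 and 1289 reads. DNAJB1, the partner of these HSP70 proteins, was 1.22-fold higher in replicate 1 (1.15 to 1.31), BAG3 1.16-fold (1.02 to 1.32) and HSPH1 1.11-fold (1.06 to 1.16). Other heat-inducible members went the other way. HSPE1 was 1.65-fold higher in replicate 2 (1.55 to 1.76) and HSPB1 was 1.40-fold higher there (1.309 to 1.498), with 1456 and 2074 reads. HSP90AA1 and HSPD1 were both 1.06-fold higher in replicate 2, a direction that turned when libraries were scaled by total reads. The heat-inducible list, which also holds HSPA8 although it is mainly constitutive, thus split, 6 of its 10 genes being higher in replicate 1 and 4 in replicate 2 (8 and 2 when scaled by total reads), with a median of -0.18 (log2).

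The pattern differed between partners that act together. HSF2 was 1.21-fold higher in replicate 2 (1.04 to 1.41) while HSF1 was higher in replicate 1. In CCT, 6 subunits were higher in replicate 2 (5 when scaled by total reads, where CCT6A turned), by 1.18-fold at most for CCT5, while TCP1 was 1.20-fold higher in replicate 1 (1.17 to 1.24) and CCT7 had an interval that reached equal levels. HSPA13 was 1.38-fold higher in replicate 2 (1.258 to 1.506). The mitochondrial HSP70 gene HSPA9 had normalized counts of 11161 and 11203, an interval that also reached equal levels.

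Of the 10 widest gaps, 7 were in class C J-domain genes, and the others were in HSPB8, HSPE1 and HSPA1A (1.54-fold higher in replicate 1). Class C made up 24 of the 68 tested members, and its median level was 5.39 RPKM, against 8.45 RPKM for all members. DNAJC17, a class C protein of the nucleus, was 1.85-fold higher in replicate 2 (1.57 to 2.19, on 221 and 417 reads). DNAJC4 was 1.73-fold higher there (1.45 to 2.06), DNAJC15 1.55-fold (1.37 to 1.75) and DNAJC28 1.52-fold (1.08 to 2.14). Toward replicate 1, HSPB8 was 1.77-fold higher (1.27 to 2.49, on 101 and 58 reads) and DNAJC3 (p58IPK, an ER co-chaperone that also restrains eIF2α kinases) 1.66-fold (1.48 to 1.85). DNAJC11 was 1.56-fold and DNAJC30 1.51-fold higher in replicate 1. Among these 10, 5 were genes with at least 10% of their exon length overlapped by another gene, against 11 of the 57 other members with a unique gene ID. These 5 were DNAJC17, DNAJC4, HSPE1, DNAJC11 and DNAJC30. The part of the overlapping genes in these gaps was not tested. DNAJC12 stood outside the tested members, its normalized counts averaging 9.50. It had 0 reads in replicate 1 and 18 in replicate 2, and the exact interval put replicate 2 at least 4.32-fold higher.

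**Figure D4:**
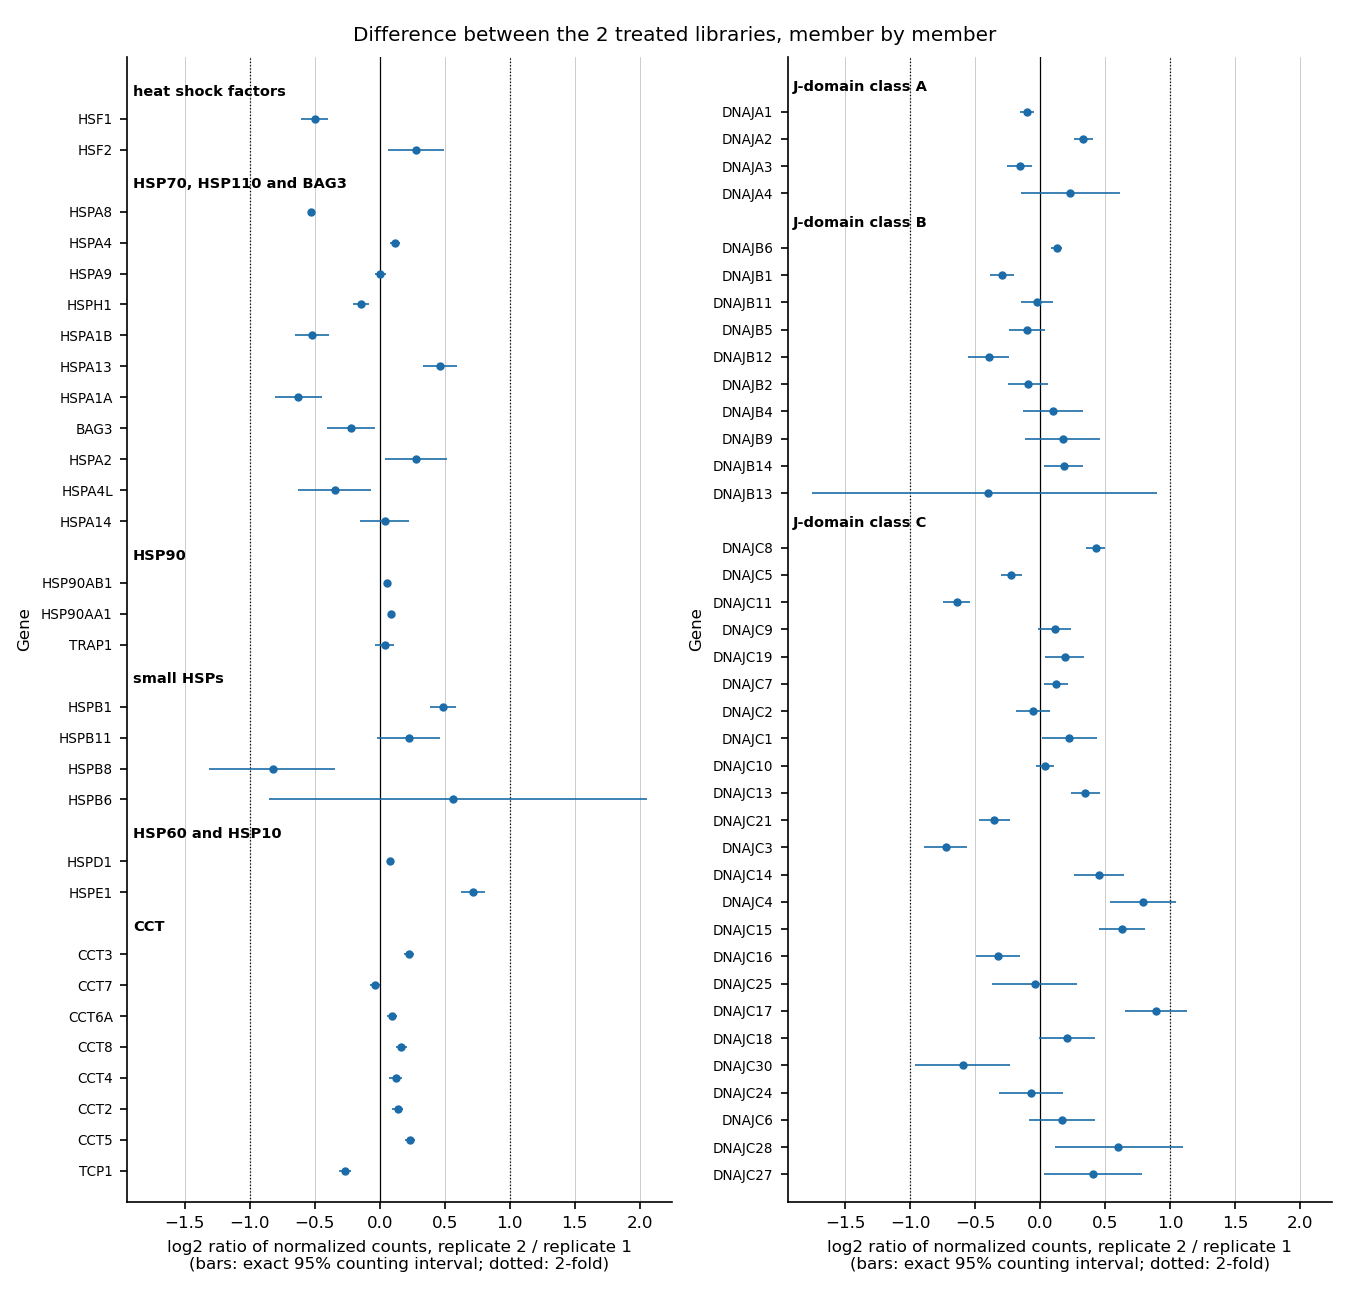
Ratio of replicate 2 to replicate 1 for 68 chaperone genes, in log2 of normalized counts; points are ratios, bars exact 95% counting intervals, and dotted lines mark 2-fold. The widest gaps are HSPB8 at -0.81 and DNAJC17 at 0.89 on the log2(normalized count + 1) scale, and the widest bars belong to HSPB6 and DNAJB13, which have the fewest reads.

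Promoter elements and library differences were set side by side. The 21 members with a 2-unit element had a median level of 27.7 RPKM, against 7.49 RPKM for the 43 with a promoter window and no match. Among listed genes in general the medians were 3.43 RPKM with the element and 4.20 RPKM without it. The median library difference was 0.08 (log2) for members with the element and 0.12 for those without. Members with the element were thus more abundant at the median, and the median differences lay close together. The 2 sets also differed in class: class C, with a median of 5.39 RPKM, held the element in 2 of 23 genes. The part of class in the gap of levels was not tested.

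Other genes of protein folding, from a list that holds no member, gave the setting. Of 52 such genes 47 were listed, and 43 of them reached 1 RPKM in both libraries. The ER chaperones led, with HSP90B1 (GRP94) at 211 and 234 RPKM and HSPA5 (BiP) at 209.6 and 166 RPKM. Among HSP90 co-chaperones, PTGES3 (p23) stood at 130.1 and 119 RPKM, STIP1 (HOP, which joins HSP70 to HSP90) at 98.1 and 88.4, and AHSA1 at 58.1 and 54.1 RPKM. The collagen chaperone SERPINH1 (HSP47) stood at 116 and 111 RPKM. The strictly inducible HSP70 genes HSPA6 and HSPA7, the lens crystallins CRYAA and CRYAB, and HSF4 were not listed. In this list 27 of 47 were higher in replicate 2, and the others in replicate 1. CCT6B, a testis form of CCT, was 2-fold or more higher in replicate 2, on 8 and 21 reads.

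The stress genes of the ER and of ATF4 were placed beside them. Of these 18 genes, all in the table, 17 had at least 1 RPKM in each library. They were split between the libraries, with 8 higher in replicate 2 and 10 in replicate 1 and a median of -0.02 (log2), and 0 were 2-fold apart.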

How the data were processed

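Poly(A) RNA of H1 cells was sequenced as paired ends on an Illumina NextSeq instrument, per the labels' protocols. The authors deposited 1 table of normalized signal (gene counts divided by 1 size factor per library). Trimmomatic 0.36, STAR, featureCounts 1.5.3, DESeq2 1.26.0 and hg38 are named without roles, per the submitters' processing notes. The annotation, the strand setting and the rule for listing genes are not given in the sources at hand. Columns were matched to samples by treatment, time and replicate number; 7 columns, among them a replicate 3 of XMD892 at 12 h, matched none of the samples and were not used. Whole reads were recovered by dividing by each column's step (100% of values within 0.01 reads). The size factors were 0.932 and 0.948.

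RPKM used recovered reads and merged exon lengths of GENCODE release 29 (GRCh38), matched by exact symbol for 19262 genes. Differences were log2(normalized count + 1) over genes with a mean of at least 10. Intervals are exact binomial (95%), tested on simulated data, and cover counting error only, as do limits for 0 reads. The TMM scale came from edgeR 4.0.16. The planned test against E8 and the protein motif search were not run. Shared windows are 50-base transcript words found in another GENCODE gene on either strand. The members and all gene lists were chosen with earlier results of these data known. The text names the heat-inducible members, HSF1 and HSF2, the extremes of each class and the CCT subunits by rule; the other members were named after their values were seen. A result of the list of other folding genes is not reported here.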

Additional observations from a re-analysis of the deposited data

How the results depend on the processing

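No paired analysis was possible because the E8 samples were not analysed here, so no groups share replicate numbers. Without the filter on low values, 1 of 71 members (DNAJC12) was 2-fold apart in place of 0, and 3350 of all genes were, in place of 1761; with a mean of at least 50 it was 711 genes. With a pseudocount of 5, on the TMM scale or with total reads as the scale, 0 members were 2-fold apart. With total reads as the scale, the members' median moved from 0.09 to -0.01 (log2) and that of all genes from 0.02 to -0.08, and 4 members whose counting interval excluded equal levels turned to replicate 1: HSP90AB1 at -0.0436, HSPD1 at -0.0221, HSP90AA1 at -0.0152 and CCT6A at -0.00903 (log2). A further 23 members moved outside their own counting interval on that scale. Among them were HSPA8 at -0.63, TCP1 at -0.37, HSPH1 at -0.25 and HSPE1 at 0.62 (log2). On the TMM scale 3 members moved outside theirs. The quoted intervals thus do not cover the choice of scale. The members' median level was 8.45 RPKM, and 8.09 to 8.96 RPKM without 1 replicate each. With merged exons of the basic transcript set, an alternative chosen after seeing the data, it was 11.2 RPKM, and 27 of 70 members were more than 1.5 times higher, up to 4.48 times for DNAJB6. The 2-unit element was in 32.8% of member genes and the 3-unit form in 9.38%. Leaving out a replicate gives no difference between libraries. The counting intervals of HSPB6, HSPB9, DNAJB13 and DNAJC22, each under 20 reads a library, reached both equal levels and 2-fold.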
